A study of Mus musculus with 9 samples.

Results

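The fibroblast growth factor (FGF) to ERK pathway was described through 10 genes in bulk RNA-seq counts from 9 libraries of mouse embryonic stem cells. The genes were the ligand Fgf4, the receptors Fgfr1 and Fgfr2, the feedback inhibitors Spry2, Spry4, Spred1, Dusp4 and Dusp6, and the transcription factors Etv4 and Etv5. They were taken by symbol from the 30232 gene rows of the count table, also where a row merges several symbols. All 10 had a row and all 10 passed the filter on low counts that left 12645 genes. Spred1 shares its row with the transcript AK047776, so its value may hold reads of both.

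The study compared 4 wild-type libraries with 5 libraries of Gzf1-knockout cells, Gzf1 being a zinc finger protein gene. The RGM line, sequenced in run2, gave replicates 1 and 2 of each genotype. In run1, the V6.5 line gave replicate 3 of the wild type and the remaining 3 knockout libraries (replicates 3, 4 and 5), and a Cas9-GFP line gave replicate 4 of the wild type. Run and cell line therefore coincide and cannot be told apart, and a difference between run2 and run1 below is always also one between RGM cells and the other lines. All cells were grown with serum and LIF on irradiated fibroblast feeders, which were depleted before harvest. The sources used here do not give the position of the Gzf1 edit or say whether the libraries are separate clones or cultures, so the spread behind each p-value is that among these libraries and may be technical.

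In mouse embryonic stem cells, FGF4 made by the cells themselves binds FGF receptors with heparan sulfate and switches on Ras, Raf, MEK and ERK. ERK activity prepares the cells to leave the naive state, and in the early embryo it steers inner cell mass cells towards primitive endoderm. ERK also induces its own brakes: Sprouty and Spred proteins act at and upstream of Raf, dual-specificity phosphatases remove the activating phosphates from ERK, and ETV4 and ETV5 are ETS factors induced by the pathway. The repressor Capicua holds down several of these targets until ERK inactivates it.

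Sequences from RefSeq (GRCm38.p6) gave the 250 bases before the start of 6 of the 10 genes: Fgf4, Fgfr2, Spry2, Dusp6, Etv5 (2 starts) and Spred1. Shown are those of 2 genes that were higher in run2 (Spry2 and Dusp6) and 2 that were lower (Fgf4 and the first Etv5 start), because genes of the same feedback circuit differed in opposite directions. Each runs 5′ to 3′ on the gene's strand, and capitals mark a match to the Capicua octamer.
Spry2, chr14:105896820-105897069, minus strand: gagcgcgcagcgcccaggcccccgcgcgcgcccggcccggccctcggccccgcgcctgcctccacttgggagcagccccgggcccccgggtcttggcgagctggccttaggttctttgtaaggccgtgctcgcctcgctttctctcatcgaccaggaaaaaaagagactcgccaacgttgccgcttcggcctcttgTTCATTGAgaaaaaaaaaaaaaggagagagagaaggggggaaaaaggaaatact
Dusp6, chr10:99262981-99263230, plus strand: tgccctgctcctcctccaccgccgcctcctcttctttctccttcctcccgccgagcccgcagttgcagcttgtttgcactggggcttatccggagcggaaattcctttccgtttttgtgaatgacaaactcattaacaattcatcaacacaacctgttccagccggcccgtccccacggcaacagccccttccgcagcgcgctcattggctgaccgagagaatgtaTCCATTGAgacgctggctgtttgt
Fgf4, chr7:144861136-144861385, plus strand: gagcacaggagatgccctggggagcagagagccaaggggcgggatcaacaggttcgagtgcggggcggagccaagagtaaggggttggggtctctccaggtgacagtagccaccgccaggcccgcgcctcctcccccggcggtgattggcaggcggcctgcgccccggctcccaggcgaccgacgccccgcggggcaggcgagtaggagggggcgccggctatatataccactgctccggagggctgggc
Etv5, chr16:22439571-22439820, minus strand: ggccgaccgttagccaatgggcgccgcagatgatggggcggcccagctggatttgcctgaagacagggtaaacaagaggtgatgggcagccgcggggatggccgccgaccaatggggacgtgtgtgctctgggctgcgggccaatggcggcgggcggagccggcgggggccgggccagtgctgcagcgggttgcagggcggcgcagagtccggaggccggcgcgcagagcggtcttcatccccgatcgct
The Capicua octamer was searched as TGAATGAA, TGAATGGA, TCAATGAA and TCAATGGA on both strands. It was found in Spry2, its first base 54 bases before the start, and in Dusp6, its first base 24 bases before the start, in each case on the strand opposite to the gene, and in 3.19% of all 32851 windows of this length. The ETS core CCGGAAG (6.91% of windows), the AP-1 site TGACTCA or TGAGTCA (4.46%) and the cAMP response element TGACGTCA (1.55%) were in none of the members' windows. The GC box GGGCGG, found in 32.7% of windows, occurred 2 times in Fgf4, 3 times in the first Etv5 window and 2 times in Spred1. The Capicua octamer was absent from the window of Fgfr2, also higher in run2, and from those of Spred1 and the second Etv5 start, which are not shown. The motifs and the windows shown were chosen with the genes' values known, and a match is a description of letters only.

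The knockout and wild-type libraries did not differ detectably in any of the 10 genes. With run in the model, 0 of 10 passed an adjusted p of 0.05 (edgeR quasi-likelihood test, Benjamini-Hochberg over all tested genes), against 0.0316% of all genes, and at an unadjusted p under 0.05 there was 1, Etv4, against 2.32%. DESeq2 and limma voom also called 0 of the 10. The fitted log2 fold change was above 0 for 8 of 10 genes, against 52.6% of all genes, with a median of 0.06 (range −0.42 to 0.44) beside a median of 0.01 over all genes. In 0 of 10 genes did the 2 genotypes occupy separate ranges, against 0.443% of all genes.

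The lines and runs, by contrast, differed in 8 of the 10 genes. In run2 (RGM) Fgfr2, Spry2, Dusp4 and Dusp6 were higher and Fgf4, Spry4, Etv4 and Etv5 lower than in run1, while Fgfr1 and Spred1 did not pass the test. The share of all genes that passed was 45.3%, with 22.2% higher and 23.1% lower, so that large differences between run2 and run1 were common throughout the transcriptome. The ranges of the runs were separate for the same 8 of 10 genes, against 38.6% of all genes. Levels are CPM, which are counts scaled to the TMM-adjusted library size and may be compared between libraries for 1 gene but not between genes.

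**Figure D1:**
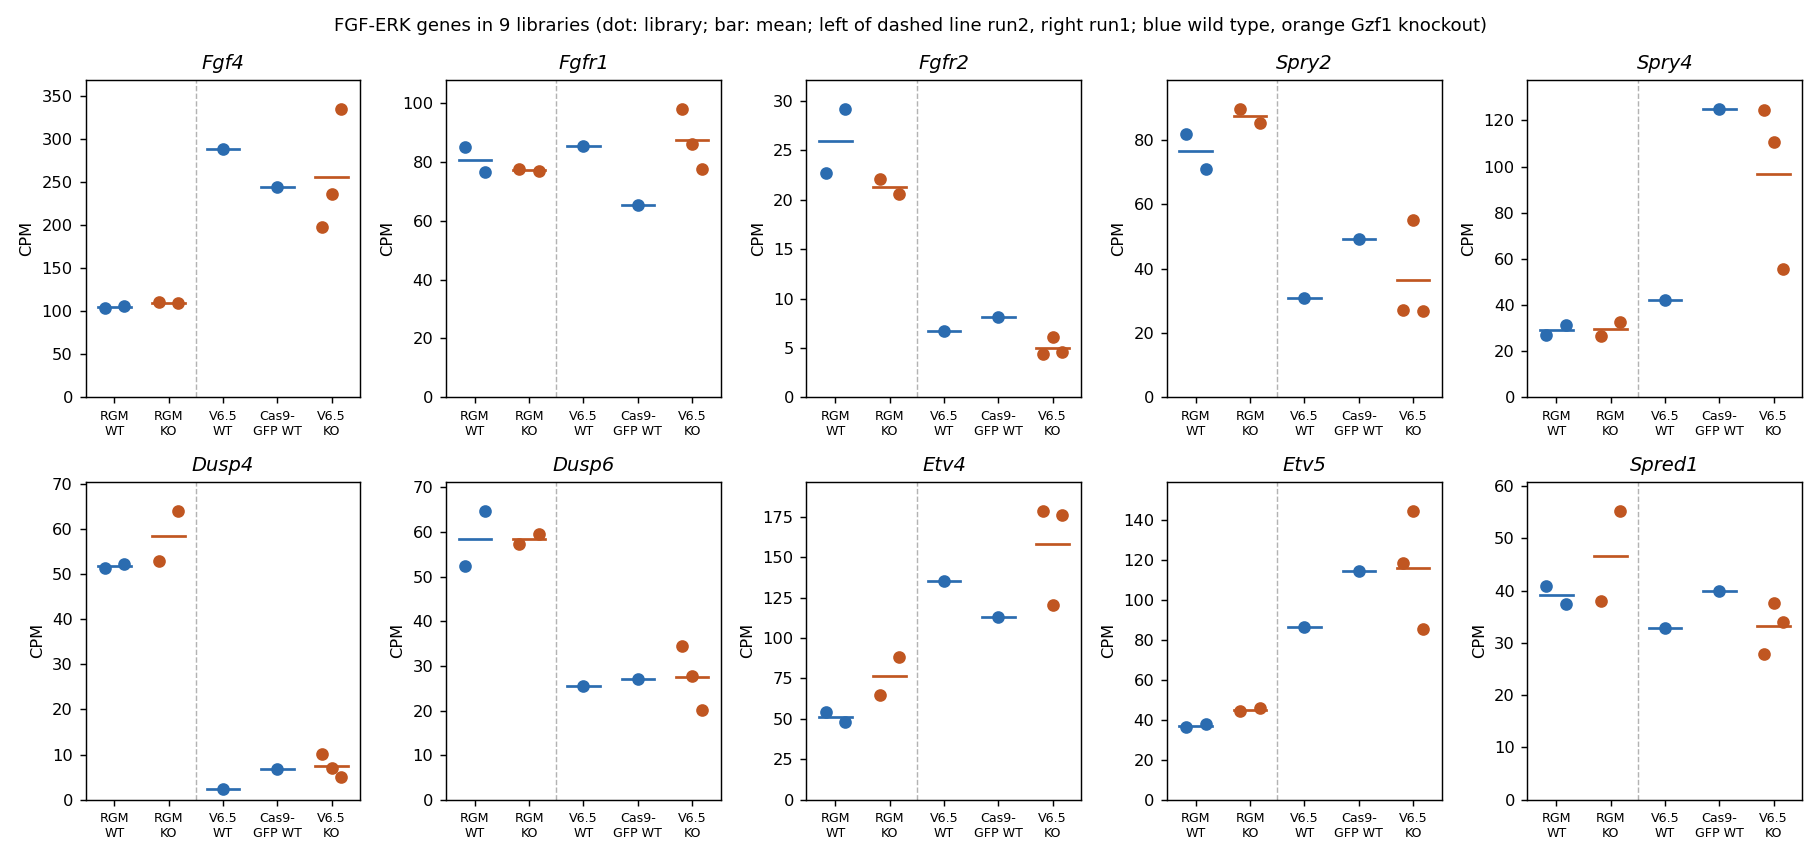
CPM of the 10 genes in each library (y axis, linear from 0), by cell line and genotype (x axis). Dots are libraries and bars are group means. The RGM libraries of run2, left of the dashed line, lie apart from all run1 libraries in 8 panels, and the Fgfr1 and Spred1 panels overlap.

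Fgf4, on chromosome 7 (144861386 to 144865245, RefSeq, GRCm38.p6), encodes the FGF that embryonic stem cells secrete. It measured 104 and 106 CPM in RGM wild-type and 111 and 109 CPM in RGM knockout libraries. In run1 it measured 288 CPM in V6.5 wild-type cells, 245 in Cas9-GFP cells and 197, 236 and 335 in V6.5 knockout cells. Every run2 library was below every run1 library, whereas the knockout values of run1 lay on both sides of the wild-type ones. The mean was 107 ± 3.17 CPM (SD, n = 4) in run2 and 260 ± 52.8 (SD, n = 5) in run1, a 2.42-fold lower fitted level in run2 (log2 fold change −1.28, SE 0.15, edgeR adjusted p = 2.2e-05). Between genotypes the log2 fold change was −0.00, with a 95% interval of −0.32 to 0.32.

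Fgf4 lies among other pathway genes on chromosome 7, which did not share 1 direction. The ligand Fgf3, 18037 bp away, was also lower in run2, at 1.09 ± 0.31 CPM (SD, n = 4) against 3.50 ± 0.79 (SD, n = 5), on 2 to 5 counts per run2 library. Fgf15, an FGF family member 31286 bp to the other side, was higher, at 20.3 ± 2.42 against 5.10 ± 2.98 CPM. Ccnd1, the cyclin D1 gene, 64685 bp away and beyond Fgf15, was lower, at 83.0 ± 17.6 against 160 ± 33.1 CPM. The GENCODE annotation of the same build places 2 genes opposite Fgf15 and 1 opposite Ccnd1 on the other strand, and the sources used here do not say how the counts treated strand.

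Fgfr1 (chromosome 8, 25518759 to 25575718) encodes a main FGF receptor of embryonic stem cells. It measured 84.9 and 76.6 CPM in RGM wild-type, 77.5 and 77.0 in RGM knockout, 85.4 in V6.5 wild-type, 65.4 in Cas9-GFP and 98.0, 86.0 and 77.7 CPM in V6.5 knockout libraries. The values overlapped between genotypes and between runs. The log2 fold change between run2 and run1 was −0.05 (95% interval −0.35 to 0.25, edgeR adjusted p = 0.792) and that between genotypes 0.09 (−0.21 to 0.38). In GENCODE the gene overlaps Gm16159 on the opposite strand.

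Fgfr2 (chromosome 7, 130162451 to 130266808) encodes the receptor known for its role in primitive endoderm. It measured 22.6 and 29.2 CPM in RGM wild-type and 22.1 and 20.5 in RGM knockout libraries, against 6.73 in V6.5 wild-type, 8.10 in Cas9-GFP and 4.42, 6.06 and 4.59 CPM in V6.5 knockout libraries. The lowest run2 library was above the highest run1 library. The fitted level was 3.88-fold higher in run2 (log2 fold change 1.96, SE 0.21, edgeR adjusted p = 9.1e-06). Across all 9 libraries the genotypes overlapped. The log2 fold change between them, −0.42 (95% interval −0.87 to 0.02), did not pass the test (unadjusted p = 0.0616, edgeR adjusted p = 0.9998). Neither did the difference within run2 (edgeR unadjusted p = 0.389) or within run1 (0.0815). Fgfr2 counts were 28 to 84 per library.

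**Figure D2:**
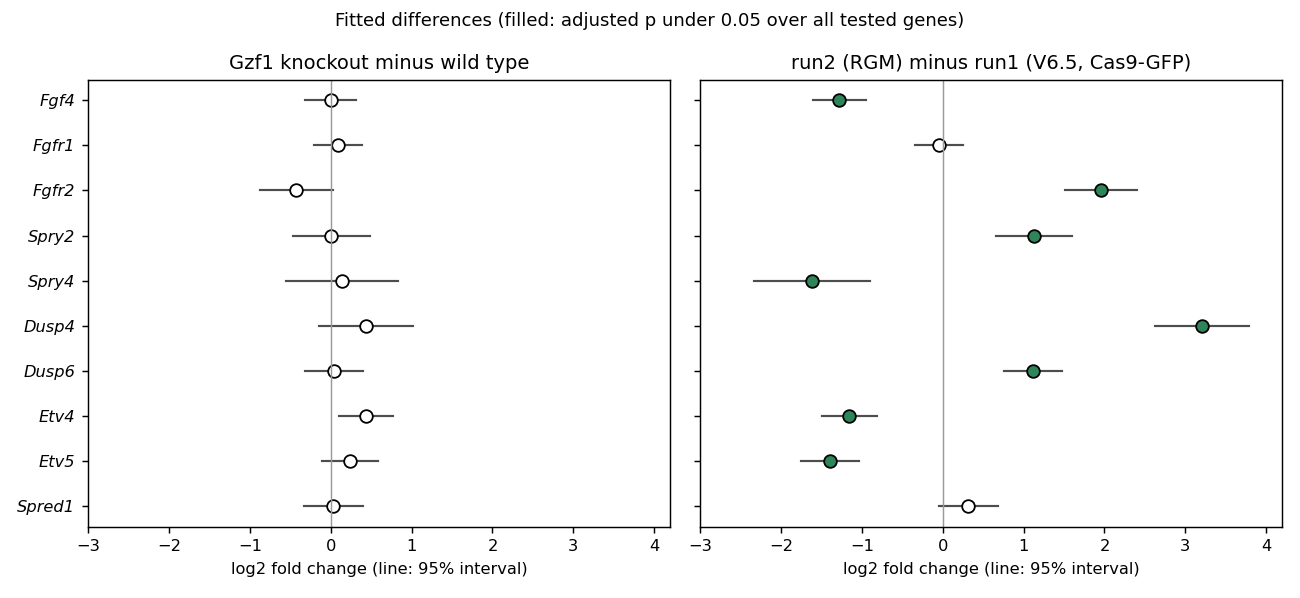
Fitted log2 fold changes (x axis) of the 10 genes, knockout minus wild type on the left and run2 minus run1 on the right, with 95% intervals as lines. Filled points passed an adjusted p of 0.05: none on the left, and 8 on the right, 4 above 0 and 4 below 0.

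The Sprouty genes, whose proteins restrain receptor signalling to Ras and Raf, differed from each other. Spry2 (chromosome 14, 105891947 to 105896819) measured 82.0 and 71.0 CPM in RGM wild-type, 89.7 and 85.3 in RGM knockout, 30.9 in V6.5 wild-type, 49.2 in Cas9-GFP and 27.1, 55.1 and 26.9 CPM in V6.5 knockout libraries. All run2 values were above all run1 values, and the fitted level was 2.18-fold higher in run2 (log2 fold change 1.12, SE 0.22, edgeR adjusted p = 9.9e-04). Between genotypes the log2 fold change was 0.01 (95% interval −0.46 to 0.48).

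Spry4, on chromosome 18, went the other way. It measured 27.2 and 31.6 CPM in RGM wild-type and 26.6 and 32.8 in RGM knockout libraries, against 42.2 in V6.5 wild-type, 125 in Cas9-GFP and 125, 110 and 55.7 CPM in V6.5 knockout libraries. All run2 libraries were below all run1 libraries, and the fitted level was 3.07-fold lower in run2 (log2 fold change −1.62, SE 0.33, edgeR adjusted p = 0.002016). Within run1, wild-type replicate 3 and knockout replicate 5 were low and the other 3 high, so both genotypes held high and low libraries. The log2 fold change between genotypes was 0.14 (95% interval −0.55 to 0.83), and 1 library decided its sign: it was −0.18 without wild-type replicate 3. Without wild-type replicate 4 it was 0.56. GENCODE places Gm27369 and Gm27804 on the opposite strand of Spry4.

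The phosphatase genes were both higher in run2. Dusp4 (chromosome 8, 34807610 to 34819894), whose product acts on nuclear ERK, measured 51.2 and 52.1 CPM in RGM wild-type and 52.9 and 63.9 in RGM knockout libraries. In run1 it measured 2.34 CPM in V6.5 wild-type, 6.79 in Cas9-GFP and 10.1, 7.10 and 5.08 in V6.5 knockout libraries. The groups lay far apart, with a 9.22-fold higher fitted level in run2 (log2 fold change 3.21, SE 0.27, edgeR adjusted p = 1.4e-06), on 17 to 73 counts per run1 library. The log2 fold change between genotypes was 0.44 (95% interval −0.15 to 1.02, unadjusted p = 0.131), and the genotypes overlapped. It was 0.16 without wild-type replicate 3 and 0.28 without knockout replicate 3.

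Dusp6 (chromosome 10, 99263231 to 99267489), whose product is the cytoplasmic ERK phosphatase often read as a measure of ERK activity, measured 52.3 and 64.7 CPM in RGM wild-type and 57.3 and 59.6 in RGM knockout libraries. In run1 it measured 25.6 in V6.5 wild-type, 27.0 in Cas9-GFP and 34.4, 27.8 and 20.2 CPM in V6.5 knockout libraries. The runs did not overlap, and the fitted level was 2.17-fold higher in run2 (log2 fold change 1.12, SE 0.17, edgeR adjusted p = 1.3e-04). Between genotypes the log2 fold change was 0.04 (95% interval −0.32 to 0.40).

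Etv4 (chromosome 11, 101769747 to 101785310) encodes an ETS factor induced by FGF signalling. It measured 54.5 and 48.2 CPM in RGM wild-type, 64.7 and 88.0 in RGM knockout, 136 in V6.5 wild-type, 113 in Cas9-GFP and 179, 120 and 176 CPM in V6.5 knockout libraries. Every run2 library was below every run1 library. Within run2, with 2 libraries of each genotype, the difference between genotypes did not pass the test. The fitted level was 2.23-fold lower in run2 (log2 fold change −1.16, SE 0.16, edgeR adjusted p = 6.6e-05). Between genotypes Etv4 differed by a log2 fold change of 0.44 (SE 0.16, 95% interval 0.11 to 0.78, unadjusted p = 0.0130, edgeR adjusted p = 0.9998 over all genes), and did not pass the test. In run1, knockout replicate 4 (120 CPM) lay between the wild-type libraries.

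Etv5 (chromosome 16, 22381313 to 22439570), the gene of the related factor, measured 36.1 and 37.9 CPM in RGM wild-type and 44.2 and 45.8 in RGM knockout libraries. In run1 it measured 86.5 in V6.5 wild-type, 114 in Cas9-GFP and 118, 144 and 85.2 CPM in V6.5 knockout libraries. The runs were again separate, with a 2.64-fold lower fitted level in run2 (log2 fold change −1.40, SE 0.17, edgeR adjusted p = 2.2e-05). Between genotypes the log2 fold change was 0.24 (95% interval −0.11 to 0.58). It was 0.14 without knockout replicate 4 and 0.16 without wild-type replicate 3.

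Spred1 (chromosome 2, 117121071 to 117182279), whose product restrains Ras, measured 41.0 and 37.5 CPM in RGM wild-type, 38.1 and 55.3 in RGM knockout, 32.8 in V6.5 wild-type, 40.0 in Cas9-GFP and 27.9, 37.6 and 34.1 CPM in V6.5 knockout libraries. Values of the runs and of the genotypes overlapped. The log2 fold change was 0.32 (95% interval −0.05 to 0.68, edgeR adjusted p = 0.141) between runs and 0.03 (−0.33 to 0.39) between genotypes.

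The genotype was also compared within each run, in a fit with 4 groups (genotype by run). Within run2, 0 of the 10 genes passed, against 0% of all genes, and within run1, 0 of 10 passed, against 0.0158%. The Etv4 log2 fold change was 0.57 in run2 (unadjusted p = 0.0394, edgeR adjusted p = 1) and 0.35 in run1 (unadjusted p = 0.125), and that of Fgfr2 was −0.28 and −0.57. The difference of the genotype effect between the runs passed in 0 of 10 genes, against 0% of all genes, with unadjusted p-values from 0.295 for Spred1 to 0.856 for Dusp6.

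The difference between run2 and run1 was likewise taken within each genotype. Among wild-type libraries 7 of the 10 genes passed, against 24.4% of all genes, and among knockout libraries, where it compares RGM with V6.5 cells alone, 8 of 10 passed, against 25.0%. Fgfr1 and Spred1 passed in neither genotype. Spry2 passed among knockout libraries and missed the threshold among wild-type libraries, at a log2 fold change of 0.94 (edgeR adjusted p = 0.0611), beside 1.28 among knockout libraries (adjusted p = 0.0103), a difference that did not pass its own test (unadjusted p = 0.477, edgeR adjusted p = 0.99996). The largest differences were those of Dusp4, 3.54 among wild-type and 2.96 among knockout libraries. Fgf4 gave −1.34 and −1.22. The Cas9-GFP library lay within the range of the 4 V6.5 libraries for Fgf4, Spry2, Dusp4, Dusp6 and Etv5. It was above that range for Fgfr2, Spry4 and Spred1, and below it for Fgfr1 and Etv4. Most of the V6.5 libraries are knockout while the Cas9-GFP library is wild type, so genotype is mixed into this comparison. The share of all genes within the range was not computed.

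The coefficient of variation was higher in run1 than in run2 for 8 of the 10 genes, a share near the 76.8% of all genes, and lower in run1 for Etv4 and Spred1. For Fgf4 it was 20.3% in run1 and 2.95% in run2, and for Spry4 43.3% and 10.4%. Run1 holds 2 lines and more deeply sequenced libraries. Among the 4 V6.5 libraries alone the coefficient was 22.8% for Fgf4 and 48.6% for Spry4. It was lower there than over all of run1 for Fgfr1, Fgfr2, Etv4 and Spred1. The cause of the difference in spread was not tested.

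After the mean of each run was subtracted, Fgf4 and Dusp6 still ran in opposite directions over the 9 libraries (Pearson r = −0.89), as did Fgf4 and Spry4 (r = −0.80). Fgfr2 and Etv4 also ran in opposite directions (r = −0.85). Spry4 ran with Dusp4 (r = 0.90) and with Etv5 (r = 0.78), and Etv4 and Etv5 had r = −0.01. Without that subtraction Etv4 and Etv5 had r = 0.84 and Fgf4 and Spry4 r = 0.66. These are descriptions of 45 pairs over libraries that share their scaling, and for most of these genes the spread is larger in run1. Of 12644 other tested genes, those most like Fgf4 by this measure were Eef2kmt (r = 0.98), C330024D21Rik (0.98) and Etnk2 (0.97). Those most like Dusp6 were Abhd17b (0.96), Arih2 (0.96) and Ier2 (0.94), and those most like Etv4 were Gm3716 (0.97), Cdc42ep2 (0.96) and Cacna1a (0.95).

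The other genes of the pathway came from lists by role: 65 genes, of which 64 had a row and 59 were tested. Between genotypes 0 of the 59 passed in either direction (median log2 fold change 0.04, against 0.01 over all genes). Between run2 and run1, 15 were higher and 17 lower, beside 22.2% and 23.1% of all genes. The role lists hold 3 to 11 tested genes each, and their counts, given below, are to be read against the same shares.

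Among the other ligands, 3 of 5 tested were higher in run2 and 1 lower. Fgf8, an FGF of the early embryo and primitive streak, was 11.5 ± 2.85 CPM (SD, n = 4) in run2 and 1.36 ± 0.83 (SD, n = 5) in run1, and Fgf10 14.7 ± 2.68 against 6.28 ± 2.71. Fgf17, the tested ligand of this list with the highest mean, did not pass (23.8 ± 5.89 against 44.7 ± 32.4 CPM). Of the untested ligands, Fgf2 had 0 counts in all 9 libraries, which allows up to 0.412 to 1.18 CPM depending on the library (3 counts, counting error only), and Fgf5, a marker of the primed state, had 1 to 19 counts per library. Among the receptors Fgfr4 and the decoy-like receptor gene Fgfrl1 were higher in run2 (log2 fold changes 1.27 and 0.83) and Fgfr3 was lower (−2.77).

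Of 8 tested genes for adaptors that link the receptor to Ras, Shc1 was higher (log2 fold change 0.51) and Gab1 lower (−0.32), and Grb2, at 147 ± 9.81 CPM in run2 and 161 ± 11.2 in run1, did not pass. In the kinase cascade 2 of 10 tested genes were higher and 3 lower. Braf (1.01) and Shoc2 (0.75) were higher, and Hras (−1.24), Map2k2 (−0.54) and Araf (−0.47) lower, all as log2 fold changes.

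Further negative regulators again lay on both sides. Spry1 (log2 fold change 1.03) and Dusp1 (0.48) were higher in run2, and Dusp9, another ERK phosphatase gene, was lower (104 ± 7.81 against 320 ± 118 CPM), as was Dusp7 (−1.09), with 11 tested. Of 9 tested ETS and nuclear factors 2 were higher, Ets1 among them (2.22), and 4 were lower. The lower genes were the ETS repressor gene Erf (34.9 ± 5.51 against 194 ± 61.3 CPM), Elk1 (−1.05), Etv1 (−1.08) and Cic, the Capicua gene (−0.51). A link between Cic and the levels of the genes described above was not tested.

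Of 8 tested early response genes, Egr1 (log2 fold change 0.87) and Junb (0.74) were higher and Phlda1 (−1.34) and Ccnd1 (−0.95) lower. Among 5 heparan sulfate enzymes, which make the co-receptor sugar chains, Hs6st1 (−0.81), Hs2st1 (−0.82) and Ndst1 (−1.24) were lower and Ext2 (0.50) higher. The Junb and Hs2st1 rows merge the symbols AK006748 and AK165181.

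**Figure D3:**
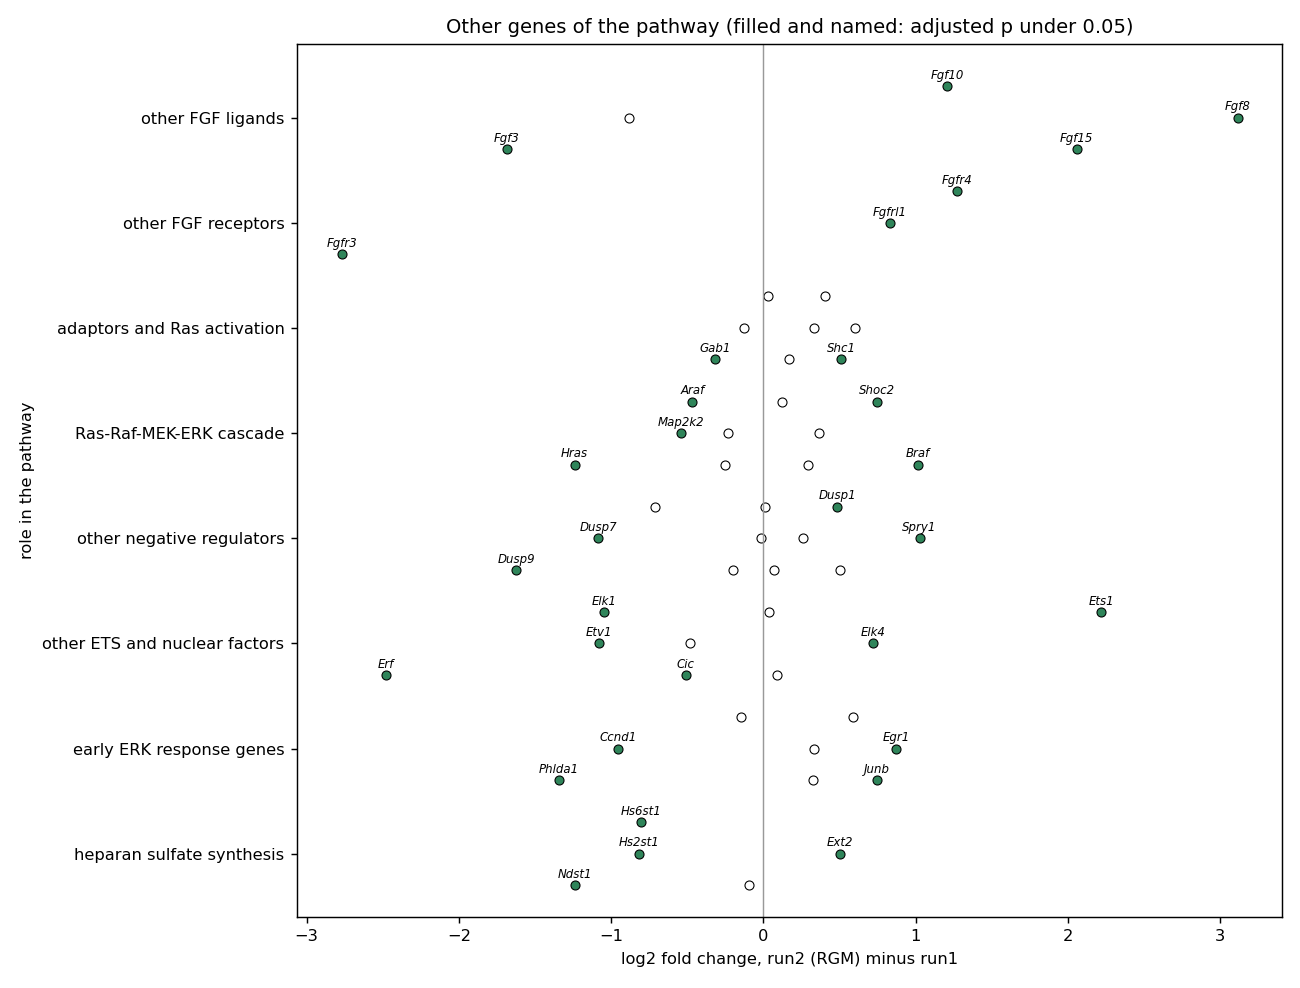
Log2 fold change between run2 and run1 (x axis) of the 59 tested other pathway genes, by role (y axis; points are spread vertically only to separate them). Filled, named points passed an adjusted p of 0.05; 15 lie above 0 and 17 below.

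The labelled cell type was checked against markers. All 10 embryonic stem cell markers were detected in every library, at a summed 5672 to 7428 CPM in run1 and 5896 to 6868 in run2. The marker counts between the runs given here are to be read against 22.2% of all genes higher in run2 and 23.1% lower. Between the runs 2 of these 10 were higher in run2 and 2 lower: Zfp42, a naive state marker, was at a mean of 348 CPM in run2 and 35.5 in run1 (log2 fold change 3.30) and Dppa5a at 2319 and 1605 (0.48), while Klf4 was at 189 and 449 (−1.23) and Tdgf1 at 559 and 1535 (−1.44). Feeder fibroblast markers moved with the run: 14 of 16 tested (17 listed) were higher in run2 and 0 lower, at a summed 1370 to 2570 CPM in run2 and 691 to 1183 in run1, and none of the 5 defining markers (Col1a1, Col1a2, Col3a1, Postn, Dcn) was at 0 in any library. Between genotypes 0 of the 16 passed, with sums of 691 to 1931 CPM in wild-type and 697 to 2570 in knockout libraries. Primitive endoderm markers summed to 237 to 298 CPM in run2 and 155 to 256 in run1, 4 of 8 tested (13 listed) being higher in run2 and 0 lower. Lamb1 alone had a mean of 129 CPM in run2 and 68.9 in run1. Of the untested markers, Gata6 (1.73 and 4.31 CPM), Sox17 (0.52 and 2.82) and Sox7 (0.49 and 3.77) had lower means in run2. Foxa2 (1.21 and 0.11) and Cubn (0.44 and 0.27) had higher ones. Of the defining primitive endoderm markers Foxa2 was at 0 in 2 run1 libraries, and Gata4, Gata6 and Sox17 were at 0 in none. Formative and primed markers summed to 214 to 342 CPM in run2 and 130 to 156 in run1, with 4 of 6 higher and 1 lower.

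Within run2, knockout replicate 1 had the lowest fibroblast sum (1370 CPM) and knockout replicate 2 the highest (2570). These are single libraries, with 52 to 69 counts of Fgfr2. Of the 4 genes that were higher in run2, Spry2 and Fgfr2 were lower in the library with the higher sum (Spry2 89.7 and 85.3 CPM, Fgfr2 22.1 and 20.5). Dusp6 (57.3 and 59.6 CPM) and Dusp4 (52.9 and 63.9 CPM) were higher in it. Of the wild-type run2 libraries, replicate 1 had the higher sum (1931 CPM, against 1610 in replicate 2). Replicate 1 had more Spry2 (82.0 and 71.0 CPM) and less Fgfr2 (22.6 and 29.2), Dusp4 (51.2 and 52.1) and Dusp6 (52.3 and 64.7). These too are differences between single libraries, and whether they exceed counting error was not tested. Knockout replicate 3 of run1, with a sum of 1183 CPM, had 10.1 CPM of Dusp4 and 4.42 of Fgfr2. The part of feeder, primitive endoderm or primed cells in the levels of the 10 genes was not tested, and in bulk RNA fewer cells of a type and less RNA per cell cannot be told apart.

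**Figure D4:**
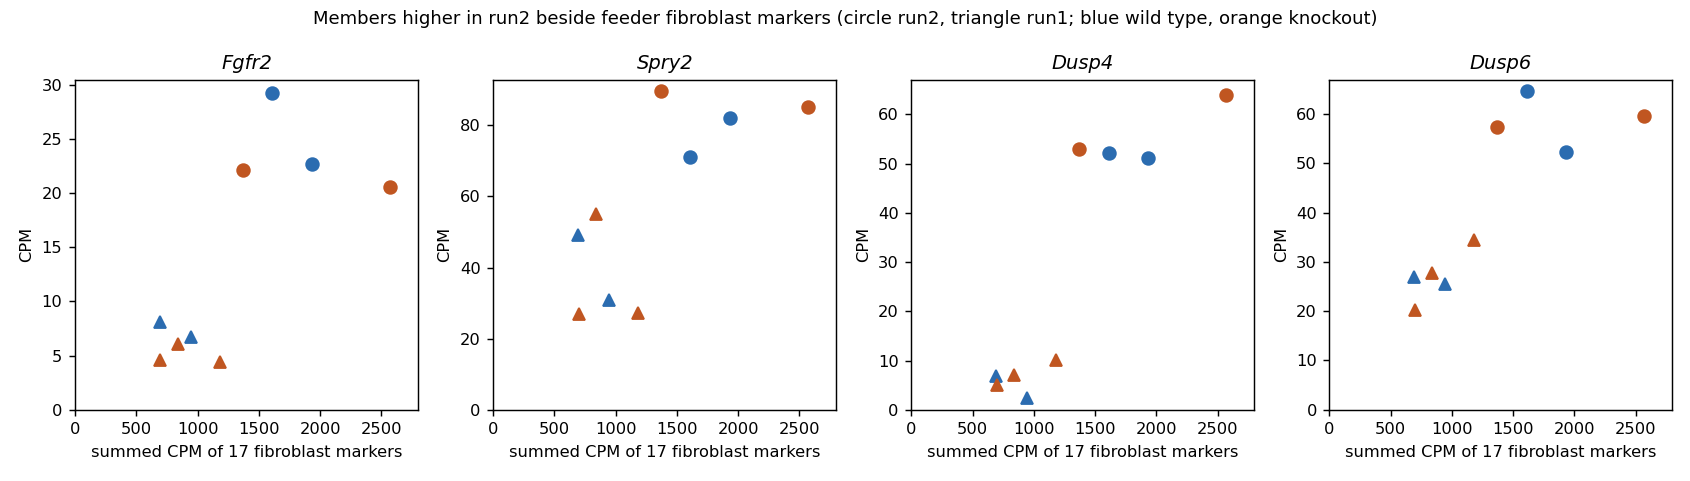
CPM of Fgfr2, Spry2, Dusp4 and Dusp6 (y axes) against the summed CPM of 17 feeder fibroblast markers (x axis) in 9 libraries, circles for run2 and triangles for run1. In each panel the run2 libraries lie above the run1 libraries, and the fibroblast sums of run2 (1370 to 2570 CPM) also lie above those of run1 (691 to 1183).

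Library totals were 2568490 to 3704162 counts in run2 and 4872127 to 7072697 in run1, and all 10 genes had at least 17 counts in each library. Gzf1 itself measured 28.6, 30.0, 8.11 and 18.7 CPM in the 4 wild-type libraries by replicate number, and 5.45, 14.2, 1.66, 9.40 and 5.24 in the 5 knockout libraries. The genotypes overlapped through wild-type replicate 3, and the log2 fold change of −1.45 (SE 0.42, unadjusted p = 0.0048) did not pass the adjustment (edgeR adjusted p = 0.9998). A 3′ tag outside an edited part of the gene need not report the edit, so this checks the labels only in part.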

How the data were processed

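Poly(A)+ RNA of 9 libraries was prepared with MARS-seq2.0, which counts 3′ ends, per the labels' protocols. The authors deposited raw counts per gene symbol; the submitters' processing notes name STAR, DESeq2 and mm10. The counter, annotation and use of strand or molecular identifiers: not given in the sources used here. Of 30324 rows, 92 spike-in rows (1 count in all) were left out.

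Genes were filtered with filterByExpr (minimum count 10), scaled by TMM and tested with the robust quasi-likelihood method of edgeR 4.0.16 under R 4.3.3, run and genotype as terms, and Benjamini-Hochberg adjustment over 12645 genes at 0.05. Standard errors are those implied by the F statistic of each gene. Alternatives were RLE scaling, no filter, DESeq2 1.42.0, limma 3.58.1 voom with quality weights, leaving out each library, separate fits per run and a replicate block. The code was tested on simulated data. Correlations used log2 CPM with a prior count of 2. No libraries of a genotype and run agreed within sampling noise (chi-square per degree of freedom at least 2.48), so each was treated as 1 replicate. This does not show that they are separate cultures, and the wild-type pair of run1 joins V6.5 with Cas9-GFP. Promoters and gene spans came from RefSeq and overlapping genes from GENCODE, both on GRCm38, the build also called mm10.

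The 10 genes and all lists were chosen with earlier results of these data known. Named genes were the 10 members and, per role list, those past the threshold between genotypes, up to 4 with the smallest p between runs and the tested gene with the highest mean CPM. Araf and Cic were named outside this rule after their values were seen. An item of the lists is not reported here and was left out of their counts.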

Additional observations from a re-analysis of the deposited data

Results flagged for a closer look

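Of 40 groups of libraries examined for a single library standing apart from the rest of its group by Dixon's test at the 95% level, 3 held one, and chance gives about 1 in 20. Fgfr1 in wild-type replicate 1 was 84.9 CPM, with the other 3 run2 libraries at 76.6 to 77.5. Dusp4 in knockout replicate 2 was 63.9 CPM, with the other 3 run2 libraries at 51.2 to 52.9, and this library also had the highest sum of fibroblast markers (2570 CPM), whose part in the value was not tested. Spry4 in wild-type replicate 4, the Cas9-GFP library, was 125 CPM, with the other 3 wild-type libraries at 27.2 to 42.2; 2 of those 3 are RGM libraries of run2. The genotype effect differed between the runs for 0 of the 10 genes.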

How the results depend on the processing

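Of the 10 genes, 0 passed between genotypes under all 14 alternatives and 8 passed between run2 and run1 under all 13, with edgeR, DESeq2 and voom and without each library. The values recomputed were fold changes and counts of the 10 genes past the threshold. Of these, 18 changed sign, all of them fold changes near 0 that passed no test, and the cause was not tested. The other 301 held: the fold changes kept their direction and side of the threshold, and the counts were unchanged. Leaving out 1 library moved the log2 fold change between genotypes from −0.12 to 0.085 for Fgf4, from −0.023 to 0.14 for Fgfr1, from −0.18 to 0.21 for Spry2, from −0.18 to 0.56 for Spry4, from −0.066 to 0.13 for Dusp6 and from −0.10 to 0.14 for Spred1, and, with the sign kept, from 0.16 to 0.61 for Dusp4, from 0.14 to 0.35 for Etv5 and from −0.52 to −0.34 for Fgfr2. It moved the Fgfr1 value between runs from −0.15 to 0.0017. Fgf4 was 0.0037 under voom and Spry2 −0.0056 without the filter on low counts. Etv4 kept a positive sign between genotypes throughout (0.34 to 0.54), with adjusted p-values of at least 0.801. Over all genes, the count past the threshold between genotypes was 4, against 35 without the filter, 7 with DESeq2, 7 with voom and 2 to 4 without a library; within run2 it was 0, against 9 in a fit to run2 alone, and within run1 2, against 1. The replicate block gave 6 calls and 0 of the 10 genes, and under it the Etv4 log2 fold change was 0.38 and that of Etv5 0.35 (unadjusted p = 0.0117, edgeR adjusted p = 0.9996). Replicate numbers coincide with run, and once run was removed the same-numbered libraries had correlations of −0.07, −0.07, 0.30 and 0.34; the first 2 are a single value, since 2 libraries mirror each other about their mean. The wild-type libraries of run1 mirror each other in the same way, so 0.30 and 0.34 are not independent values. Replicate number 4 joins a Cas9-GFP with a V6.5 library, so it marks no shared culture. A pairing in run1 is otherwise left unsettled, and the labels name no shared culture. Counts of 17 to 84 per library limit Dusp4 in run1 and Fgfr2, and a floor of 3 counts was 0.412 to 1.18 CPM, for counting error only.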
